A study of Mus musculus with 24 samples.

Results

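The neurofilament and axonal cytoskeleton genes followed here were Nefl, Nefm, Nefh and Ina, which encode neurofilament subunits, Mapt, Map2, Map1b and Stmn2, which encode microtubule proteins, and Gap43 and Sncg, which encode growth cone and axonal proteins. They were chosen by gene symbol, each symbol matched 1 gene ID, and they make up 10 of the 57126 genes in the count tables. The mice came from the BALB/cNctr-Npc1m1N/J strain, a model of Niemann-Pick disease type C in which all cells of a mutant mouse carry the Npc1 allele. The Npc1-/- vehicle group held 3 males and 1 female killed on postnatal day 63. The Npc1-/- dipyridamole group held 2 males and 2 females killed on day 63, given 30 mg/kg of the drug by intraperitoneal injection on 5 days a week from day 28. The Npc1+/+ vehicle group held 4 females killed on day 65. Every mouse of the 3 groups was injected with a PBS and PEG400 mixture, which also carried the drug. Cerebellum and hippocampus of each of the 12 mice gave 24 libraries, 4 in each group and tissue.

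Neurofilaments are the intermediate filaments of axons. The light chain Nefl forms the core with internexin (Ina) and the middle and heavy chains Nefm and Nefh, and their amount is known to set the calibre of large axons. Tau (Mapt) binds microtubules mainly in axons, Map2 mainly in dendrites, and Map1b in both. Stathmin-2 (Stmn2) binds free tubulin and is needed for axon maintenance, Gap43 marks growing axons, and gamma-synuclein (Sncg) is an abundant axonal protein of sensory, motor and brainstem neurons. In mice without Npc1, Purkinje cells of the cerebellum are known to swell along their axons and die.

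RNA was read with a panel of 1 short amplicon per gene, so levels below are compared between groups and not between genes. Levels are CPM, the count of a gene scaled to a common library size with TMM factors. The libraries held between 1833609 and 11590081 counts, median 7.98 M, the fewest in the cerebellar library of Npc1-/- vehicle replicate 2. Npc1 averaged 28.9 ± 7.28 CPM in Npc1-/- vehicle, 20.1 ± 6.54 CPM in Npc1-/- dipyridamole and 102.4 ± 4.71 CPM in Npc1+/+ vehicle cerebella (SD, n = 4 each). In hippocampi it averaged 19.8 ± 2.42, 18.6 ± 2.54 and 78.0 ± 15.0 CPM in the same 3 groups, with no overlap between mutant and wild-type mice. Markers fitted the tissue labels of the wild-type libraries. There 12 of 13 Purkinje cell genes and 8 of 8 tested granule cell genes were higher in cerebellum. All 13 hippocampal principal neuron genes were higher in hippocampus (edgeR's quasi-likelihood test, adjusted p of 0.05 or less). Mutant hippocampi varied more: markers of neighbouring cortex and thalamus summed to 298.4 to 667.8 CPM in dipyridamole and 387.5 to 470.4 CPM in wild-type hippocampi. Slc17a6, a glutamate transporter, had 36.4 CPM in dipyridamole replicate 4 and 3.30 CPM in Npc1-/- vehicle replicate 2, against 16.7 to 26.9 CPM in wild-type hippocampi. Choroid plexus genes summed to between 57.0 and 8183 CPM over the 24 libraries and passed the test in no comparison named here. In the labels, the hippocampal library of dipyridamole replicate 4 carries ion code 124, which is also that of the same mouse's cerebellar library. Age, the range of ion codes (117 to 131 in mutants against 101 to 112 in wild type) and, in part, sex run with genotype, and what they contribute cannot be told apart from it.

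The counts were made without strand, and some members lie over other genes. Coordinates are GRCm39 as in the deposited files. Nefl (chromosome 14, 68321312 to 68326544, plus strand) and Nefm (chromosome 14, 68320039 to 68362295, minus strand) share 1108 exonic bases, between 68321312 and 68322419. Ina (chromosome 19, 47003137 to 47013766, plus strand) shares 456 exonic bases with Nt5c2 on the other strand. Reads in these stretches could not be told apart by gene, and the position of the amplicons was not used here. Sncg lies on chromosome 14 from 34092231 to 34096746 and Nefh on chromosome 11 from 4888754 to 4898064, both on the minus strand, with no annotated neighbour over them. Map2 spans chromosome 1 from 66214432 to 66481742 on the plus strand. Each member had counts in all 24 libraries, from a lowest of 53 counts for Sncg to a highest of 17255 counts for Map1b, and all 10 passed the filter on low counts in both tissues.

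The RefSeq promoter table (GRCm38.p6, 250 bases before and 50 after the gene start) held 4 of the 10 members, Ina, Map2, Map1b and Sncg. Those of Sncg, Ina and Map2 are shown because Sncg was the member higher in mutant cerebellum, Ina the member lower in treated mutant cerebellum, and Map2 the member lower in cerebellum than in hippocampus. Capitals mark the GC box GGGCGG on either strand, so that CCGCCC is a match on the strand opposite to the one printed.
Sncg, chr14:34374620-34374919, minus strand: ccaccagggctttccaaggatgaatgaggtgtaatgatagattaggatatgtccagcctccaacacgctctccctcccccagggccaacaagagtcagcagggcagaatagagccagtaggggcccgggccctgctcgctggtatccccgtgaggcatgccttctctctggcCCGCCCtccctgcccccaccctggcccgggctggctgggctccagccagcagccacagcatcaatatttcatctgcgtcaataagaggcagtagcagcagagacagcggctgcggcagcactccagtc
Ina, chr19:47014431-47014730, plus strand: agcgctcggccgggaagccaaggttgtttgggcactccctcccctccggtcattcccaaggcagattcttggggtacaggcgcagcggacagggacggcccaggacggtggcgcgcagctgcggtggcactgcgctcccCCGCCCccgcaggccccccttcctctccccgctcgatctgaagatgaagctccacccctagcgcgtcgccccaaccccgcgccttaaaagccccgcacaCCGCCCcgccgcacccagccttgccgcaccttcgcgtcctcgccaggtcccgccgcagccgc
Map2, chr1:66175079-66175378, plus strand: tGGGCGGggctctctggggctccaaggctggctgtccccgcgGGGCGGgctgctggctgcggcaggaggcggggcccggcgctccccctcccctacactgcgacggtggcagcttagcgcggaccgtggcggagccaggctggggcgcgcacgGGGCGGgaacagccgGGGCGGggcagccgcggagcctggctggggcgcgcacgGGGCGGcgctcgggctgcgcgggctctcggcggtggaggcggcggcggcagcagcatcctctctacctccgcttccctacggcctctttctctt

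The Sncg promoter held 1 GC box, starting at position -78 from the gene start, that of Ina 2 and that of Map2 5. The Map1b promoter held 2 GC boxes and 1 TATAAA box. Of the 32851 promoters of this length in the table, 35.7% held GGGCGG and 13.6% held TATAAA. TGACGTCA, the cyclic AMP response element, was in 1.79% of promoters, and the palindromic site of the factor Nrf1 in 0.971%. Neither was in these 4 windows. GC content was 61.3% for Sncg, 71.7% for Ina, 77.7% for Map2 and 65.7% for Map1b, against a median of 52.7% over all promoters.

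The first comparison was between untreated mutant and wild-type mice, and it asks what loss of Npc1 does to these transcripts. In cerebellum Sncg rose 2.79-fold while the other 9 members did not pass the test. Sncg had 177.3, 159.2, 138.0 and 234.5 CPM in Npc1-/- vehicle cerebella, 83.1, 133.1, 172.5 and 138.6 CPM in Npc1-/- dipyridamole cerebella, and 76.7, 78.1, 47.3 and 73.9 CPM in Npc1+/+ vehicle cerebella. Every mutant library, treated or not, lay above every wild-type library. The log2 fold change of untreated mutants over wild type was 1.48 ± 0.28 (SE), and edgeR, over 12921 genes, gave an adjusted p of 0.00203. That 1 of 10 members was called lies at the background, since 9.95% of all genes tested were called in this comparison, 5.91% higher and 4.04% lower. The call was lost when the 2 groups were fitted alone, with the dipyridamole group left out (log2 fold change 1.02, edgeR adjusted p = 0.058). Among female mice alone, 1 mutant against 4 wild-type mice, the log2 fold change was 1.01 (edgeR adjusted p = 0.0066), with the lone mutant female assumed to vary like the other groups.

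**Figure D1:**
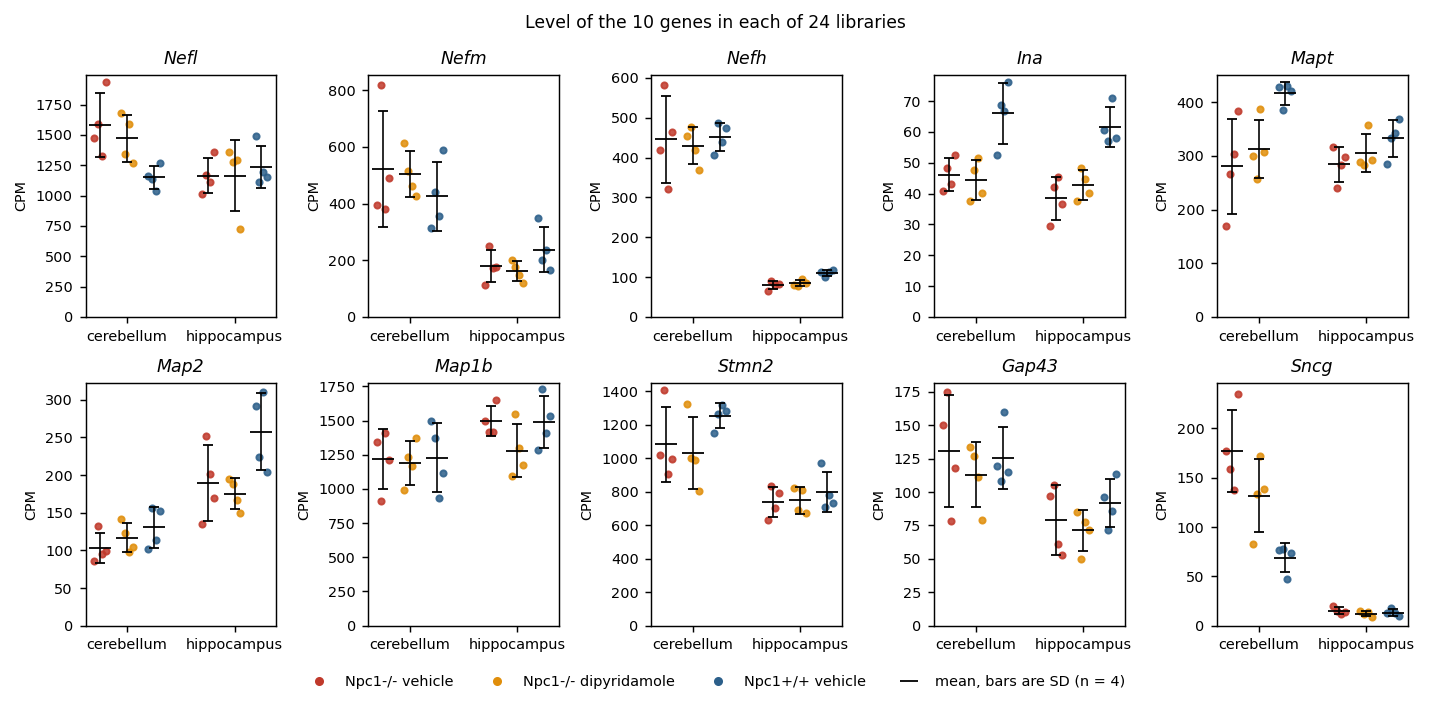
CPM of each of the 10 genes (y axis, from 0) in cerebellum and hippocampus (x axis) for Npc1-/- vehicle (red), Npc1-/- dipyridamole (orange) and Npc1+/+ vehicle (blue) mice. Each point is 1 library, black bars are the mean and SD of 4 mice. Sncg lies at 83.1 to 234.5 CPM in mutant cerebella and at 47.3 to 78.1 CPM in wild-type cerebella, and all of its hippocampal values are at or below 19.96 CPM.

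Nefl, the light chain, showed the same order of groups in cerebellum with a smaller difference. It had 1479, 1594, 1323 and 1938 CPM in Npc1-/- vehicle, 1685, 1340.0, 1589 and 1272 CPM in Npc1-/- dipyridamole and 1160.0, 1134, 1042 and 1272 CPM in Npc1+/+ vehicle cerebella. The untreated mutants lay above all wild-type libraries, and the lowest treated library lay just above the highest wild-type one. The fitted log2 fold change of untreated mutants over wild type was 0.33 ± 0.18, and the edgeR adjusted p of 0.263 did not pass the threshold.

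Ina, internexin, passed the test in treated mutants against wild type and not in untreated ones. Ina had 40.9, 48.3, 43.0 and 52.6 CPM in Npc1-/- vehicle, 37.7, 47.7, 51.7 and 40.2 CPM in Npc1-/- dipyridamole and 52.4, 68.6, 66.7 and 76.3 CPM in Npc1+/+ vehicle cerebella. The untreated and wild-type ranges met at a single library, and the treated and wild-type ranges did not overlap. The untreated difference was -0.49 ± 0.20 on the log2 scale (edgeR adjusted p = 0.143). For the treated mice against wild type it was -0.56 ± 0.18, which passed the test (edgeR adjusted p = 0.0407).

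For Nefm and Nefh, the middle and heavy chains, mutant and wild-type ranges overlapped in cerebellum. The Nefm means had the same order of groups as those of Nefl, and the Nefh means did not. Nefm averaged 521.6 ± 204.9 CPM in Npc1-/- vehicle, 504.6 ± 81.4 CPM in Npc1-/- dipyridamole and 425.2 ± 121.9 CPM in Npc1+/+ vehicle cerebella (SD, n = 4 each). Nefh averaged 446.1 ± 108.9, 429.8 ± 47.1 and 451.8 ± 35.9 CPM in the same groups. The highest value of both genes in any cerebellum, 820.3 CPM for Nefm and 582.5 CPM for Nefh, came from the shallow library of Npc1-/- vehicle replicate 2. Their log2 fold changes for untreated mutants over wild type were -0.04 ± 0.27 and -0.32 ± 0.17, and neither passed the edgeR test (adjusted p = 0.955 and 0.282).

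Within a library, the balance of subunit transcripts can be set against Nefl without comparing levels between genes, since the amplicon of each gene is the same in all libraries. The log2 ratio of Ina to Nefl ran from -5.20 to -4.94 in Npc1-/- vehicle, from -5.48 to -4.81 in Npc1-/- dipyridamole and from -4.47 to -3.97 in Npc1+/+ vehicle cerebella. The ratio was lower in each of the 8 mutant libraries than in each of the 4 wild-type ones. It restates the Ina and Nefl values given above and is not separate evidence. How many other pairs of genes separate in this way was not counted. Its mean was -5.09 ± 0.12, -5.06 ± 0.29 and -4.14 ± 0.23 in these groups (SD, n = 4 each, no test). In hippocampus the means were -4.93 ± 0.28, -4.73 ± 0.41 and -4.33 ± 0.23, with untreated mutants and wild type meeting at the edge of their ranges. Treated hippocampi ran from -5.175 to -4.179, well into the wild-type range of -4.622 to -4.074. The ratio of Nefh to Nefl averaged -1.85 ± 0.29, -1.77 ± 0.20 and -1.35 ± 0.14 in cerebellum, and that of Nefm to Nefl averaged -1.66 ± 0.48, -1.55 ± 0.17 and -1.48 ± 0.33, both with overlapping untreated and wild-type ranges.

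**Figure D2:**
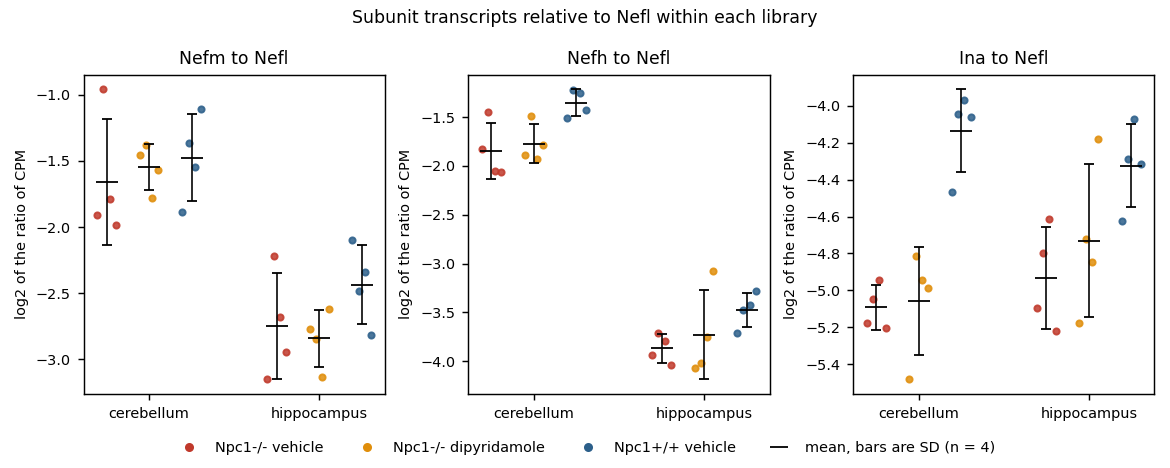
Log2 ratio of the CPM of Nefm, Nefh and Ina to that of Nefl in the same library (y axis) by tissue (x axis) and group (colours), with mean and SD of 4 mice in black. The Ina ratio lies between -5.48 and -4.81 in the 8 mutant cerebella and between -4.47 and -3.97 in the 4 wild-type cerebella.

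None of the 4 microtubule genes passed the test in untreated mutant cerebella. Mapt, tau, had 169.8, 266.6, 303.2 and 383.6 CPM in Npc1-/- vehicle, 299.4, 256.6, 388.0 and 307.4 CPM in Npc1-/- dipyridamole and 429.1, 385.3, 431.0 and 421.4 CPM in Npc1+/+ vehicle cerebella. The untreated mutants lay below all wild-type libraries, and 1 treated library reached into the wild-type range. Its spread was wide among untreated mutants, with a coefficient of variation of 31.6%, against 5.13% in wild type. The fitted difference of -0.36 ± 0.24 did not pass the test (edgeR adjusted p = 0.373).

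Map2 averaged 103.3 ± 20.3 CPM in Npc1-/- vehicle, 116.8 ± 19.5 CPM in Npc1-/- dipyridamole and 130.8 ± 27.1 CPM in Npc1+/+ vehicle cerebella (SD, n = 4 each). Stmn2 averaged 1084 ± 223.0, 1031 ± 215.7 and 1255 ± 73.9 CPM in the same groups. Their differences between untreated mutants and wild type were -0.54 ± 0.21 and -0.47 ± 0.18 (edgeR adjusted p = 0.118 for each). Without the shallow library of Npc1-/- vehicle replicate 2, both passed the test, and 3 members were called. Map1b averaged 1219 ± 221.5, 1191 ± 159.4 and 1230.0 ± 253.8 CPM, and Gap43 averaged 130.7 ± 41.7, 112.9 ± 24.4 and 125.6 ± 23.2 CPM. The fitted differences of Map1b and Gap43 between untreated mutants and wild type were 0.17 ± 0.21 and -0.46 ± 0.22 (edgeR adjusted p = 0.653 and 0.214). In both genes the fitted sign was opposite to that of the means. Neither gene passed the test, and in both the 3 ranges overlapped.

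By ranges, Nefl and Sncg lay above and Mapt below wild type in untreated mutant cerebella without overlap, 3 of 10 members against 20.7% of all genes tested (10.6% higher, 10.1% lower). The median log2 fold change of the members was -0.34, against 0.0064 over all genes tested, with 3 members above 0 and 7 below. The sex of the mice bears on these values. Sex could be estimated only among mutants, because all wild-type mice were female, so a fitted difference can depart from the ratio of the means. Without sex in the model Nefl (0.47), Ina (-0.51) and Mapt (-0.56) passed the edgeR test beside Sncg, and the values of Nefm, Map1b and Gap43 changed sign.

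**Figure D3:**
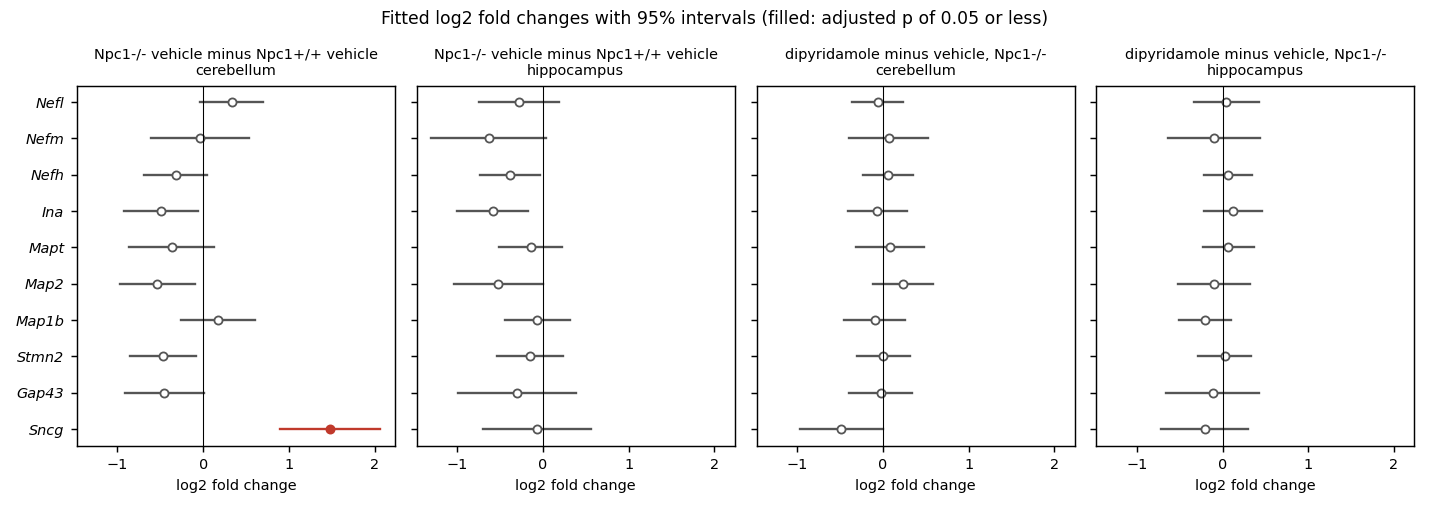
Fitted log2 fold changes (x axis) with 95% intervals for the 10 genes (y axis) in untreated mutants over wild type and in treated over untreated mutants, in cerebellum and hippocampus. Filled red marks pass an adjusted p of 0.05, which here is Sncg in mutant cerebellum alone, and open grey marks do not pass it.

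In hippocampus the same comparison gave no call among the 10 members, against 1.62% of the 12740 genes tested (1.02% higher, 0.597% lower). By an unadjusted p of 0.05, 3 members passed in edgeR's quasi-likelihood test (Nefh, Ina and Map2), against 1569 of the 12740 genes tested. DESeq2 and limma-voom with adjustment also called 0 members. Each of the 10 fitted differences lay below 0, with a median of -0.29 against -0.01 over all genes tested. The direction was not firm for all of them. Map1b and Sncg had mean CPM slightly above wild type (1495 against 1491 and 15.1 against 13.2) and changed sign without sex in the model. Map1b, Gap43 and Sncg each changed sign in 1 fit that left out 1 mouse. Nefh had 66.1, 89.8, 80.7 and 82.7 CPM in Npc1-/- vehicle, 81.1, 78.7, 96.1 and 86.2 CPM in Npc1-/- dipyridamole and 113.8, 99.9, 111.6 and 118.2 CPM in Npc1+/+ vehicle hippocampi. Every mutant hippocampus lay below every wild-type one. The fitted difference was -0.39 ± 0.16 for untreated mutants over wild type (edgeR adjusted p = 0.355).

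Ina had 29.6, 42.3, 45.5 and 36.5 CPM in Npc1-/- vehicle, 37.7, 48.4, 44.8 and 40.2 CPM in Npc1-/- dipyridamole and 60.6, 56.9, 71.1 and 58.0 CPM in Npc1+/+ vehicle hippocampi. Here too each mutant library lay below each wild-type one. The difference of -0.59 ± 0.19 for untreated mutants had an edgeR adjusted p of 0.199. Nefh and Ina were the members without overlap, 2 of 10, against 11.7% of all genes (6.29% higher, 5.38% lower). Without sex in the model both passed the test, at -0.48 and -0.68. Nt5c2, the gene that overlaps Ina, was not examined on its own.

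The remaining members overlapped between untreated mutant and wild-type hippocampi. Map2 had 134.8, 252.4, 200.9 and 169.6 CPM in Npc1-/- vehicle, 194.7, 188.5, 166.7 and 149.9 CPM in Npc1-/- dipyridamole and 291.9, 224.6, 310.5 and 203.9 CPM in Npc1+/+ vehicle hippocampi. The treated range lay just under the wild-type range, while 1 untreated library reached into it. Nefm averaged 179.0 ± 56.4, 160.9 ± 35.6 and 236.9 ± 79.6 CPM in these groups, with differences of -0.63 ± 0.31 for untreated and -0.74 ± 0.29 for treated mutants over wild type (edgeR adjusted p = 0.440 and 0.212). Nefl averaged 1165 ± 146.1, 1165 ± 293.7 and 1239 ± 172.2 CPM, and Mapt 284.5 ± 32.4, 305.2 ± 34.8 and 332.4 ± 34.6 CPM. Sncg averaged 15.1 ± 3.403, 12.3 ± 2.82 and 13.2 ± 3.43 CPM (SD, n = 4 each), with a difference of -0.07 ± 0.29 for untreated mutants over wild type.

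Whether loss of Npc1 changed a gene more in one tissue than in the other was tested directly, over 24 libraries with the mouse as a block. None of the 10 members passed the edgeR test, against 1.15% of 13436 genes (0.543% with a positive difference, 0.61% with a negative one). By an unadjusted p under 0.05 in the same test, 2 members passed (Nefl and Sncg), against 1229 of 13436 genes. The difference for Sncg, cerebellar minus hippocampal effect, was 1.52 ± 0.38 on the log2 scale (edgeR adjusted p = 0.0689). It passed with DESeq2 (adjusted p = 0.0125), without the filter on low counts (edgeR adjusted p = 0.0394) and without a sex by tissue term (edgeR adjusted p = 0.0493). It also passed the edgeR test without wild-type replicate 4. Over all settings tried, those without 1 mouse included, the adjusted p of edgeR or DESeq2 ran from 0.0125 to 0.197. The next largest value was that of Nefl, 0.61 ± 0.23 (edgeR adjusted p = 0.349).

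The second comparison, dipyridamole against vehicle in Npc1-/- mice, asks whether the drug changes these transcripts in mutants. No member passed the test in either tissue, and no gene did, so that the background was 0.0% in both. By an unadjusted p under 0.05 in edgeR's test, 0 of 10 members passed in each tissue, against 300 genes in cerebellum and 93 in hippocampus. DESeq2 and limma-voom called 0 genes in both tissues. For all 10 members the treated and untreated ranges overlapped in both tissues, against 1.22% of genes without overlap in cerebellum (0.65% higher, 0.573% lower) and 1.2% in hippocampus (0.691% higher, 0.51% lower).

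The 95% intervals show the size of change that these 4 against 4 mice leave room for. In cerebellum the largest difference was that of Sncg, at -0.48 ± 0.23 with an interval from -0.97 to 0.0017 (edgeR adjusted p = 1.00). Treated cerebella averaged 131.8 ± 36.9 CPM and untreated ones 177.3 ± 41.4 CPM, and in female mice alone the value was 0.16. Stmn2 had the narrowest room around 0 among the microtubule genes, with 0.01 ± 0.15 and an interval from -0.30 to 0.31. For Nefl the interval ran from -0.36 to 0.24 and for Ina from -0.41 to 0.28. In hippocampus the differences ran from -0.21 for Sncg and Map1b to 0.12 for Ina. Nefm had the widest neurofilament interval there, from -0.64 to 0.43. The drug effect did not pass the edgeR test between tissues for any member, with 0.0% of genes called. By an unadjusted p under 0.05 in that test, 0 members passed, against 222 of 13436 genes.

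The third comparison set the treated mutants against wild type, with the same wild-type libraries as the first, so that the values of both are given side by side and do not stand as separate evidence. In cerebellum Sncg rose and Ina fell, 2 of 10 members, against 14.4% of all genes (8.13% higher, 6.29% lower). Sncg was 1.00 ± 0.23 higher in treated mutants (edgeR adjusted p = 0.0079) and 1.48 ± 0.28 higher in untreated ones. Without dipyridamole replicate 3, which had the highest treated value, the Sncg value was 0.75 and missed the threshold (edgeR adjusted p = 0.0819). The Ina call was lost without wild-type replicate 2, 3 or 4 or dipyridamole replicate 1 or 4 (edgeR adjusted p = 0.0843, 0.0817, 0.102, 0.0528 and 0.210), and also with only the 2 groups fitted (-0.51, edgeR adjusted p = 0.0728). By ranges, Nefl and Sncg lay above and Ina below wild type, 3 of 10 members against 25.8% of genes (13.0% higher, 12.8% lower). Stmn2 and Gap43 had differences of -0.46 ± 0.16 and -0.48 ± 0.19 (edgeR adjusted p = 0.0634 and 0.0968). Stmn2 passed with DESeq2 (adjusted p = 0.0300), limma-voom (adjusted p = 0.0429), no filter, only the 2 groups fitted, female mice alone, and without dipyridamole replicate 1, at -0.46 to -0.51. Gap43 passed without dipyridamole replicate 3, at -0.71 (edgeR adjusted p = 0.0429).

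In hippocampus no member was called in treated mutants against wild type by edgeR, DESeq2 or limma-voom. In edgeR 2.68% of genes were called (1.59% higher, 1.09% lower). By an unadjusted p under 0.05 in edgeR's test, 4 members passed, against 2103 of 12740 genes. Nefh, Ina and Map2 lay below wild type without overlap, 3 of 10 against 12.4% of genes (6.82% higher, 5.54% lower). Their differences were -0.32 ± 0.14, -0.46 ± 0.17 and -0.62 ± 0.22 (edgeR adjusted p = 0.272, 0.195 and 0.170). Each of the 10 values lay below 0, with a median of -0.31 against -0.02 over all genes, but that of Nefl changed sign without dipyridamole replicate 4.

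The last comparison was between the tissues. In wild-type mice, 6 of 10 members differed between cerebellum and hippocampus, against 43.1% of 13436 genes tested (21.3% higher, 21.8% lower) in edgeR with the mouse as a block. Sncg was 5.22-fold higher in cerebellum, at a mean of 69.0 ± 14.6 CPM against 13.2 ± 3.43 CPM in hippocampus (SD, n = 4 each, log2 difference 2.38 ± 0.21, adjusted p = 7.61e-08). Nefh was 4.07-fold higher, at 451.8 ± 35.9 CPM against 110.9 ± 7.79 CPM (2.03 ± 0.11, adjusted p = 1.23e-10 by edgeR). Nefm, Stmn2 and Gap43 were also higher in cerebellum, by 0.86 ± 0.22, 0.66 ± 0.12 and 0.46 ± 0.15 on the log2 scale. Map2, of dendrites, went the other way, at 130.8 ± 27.1 CPM in cerebellum against 257.7 ± 51.5 CPM in hippocampus (-0.98 ± 0.16, edgeR adjusted p = 9.97e-05). Nefl and Ina did not pass the test (-0.10 ± 0.13 and 0.09 ± 0.14), nor did Mapt (0.33 ± 0.15, edgeR adjusted p = 0.0946) or Map1b (-0.29 ± 0.13, edgeR adjusted p = 0.0870). By ranges, Nefh, Mapt, Stmn2 and Sncg lay above and Map2 below hippocampus without overlap, 5 of 10 members against 38.9% of genes (19.3% higher, 19.7% lower). The Gap43 call was lost without wild-type replicate 2 or 3, and Map1b passed without replicate 1.

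Over the 6 groups, the order of means was clearest for Sncg, where untreated and treated mutant cerebella overlapped, wild-type cerebella lay apart below them, and the 3 hippocampal groups lay apart below those and overlapped each other. For Nefh the 3 cerebellar groups overlapped and lay apart from hippocampus, where wild type lay apart above both mutant groups. For Ina both wild-type groups overlapped each other and led the order, and the 4 mutant groups, which overlapped one another in the order of their means, followed with wild-type hippocampus apart from the next. For Nefl, Nefm, Map2, Map1b, Stmn2 and Gap43, every group overlapped its neighbour in the order. For Mapt wild-type cerebellum led and lay apart from wild-type hippocampus, the next in the order, but 1 treated mutant cerebellum reached into its range, and the other neighbours overlapped.

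Genes of other cells moved in the same libraries as Sncg. Less RNA per cell and fewer cells of a type cannot be told apart in these bulk samples. All 13 Purkinje cell markers fell in untreated mutant cerebella, with a median log2 change of -3.05, and summed to 927.2 to 1468 CPM in Npc1-/- vehicle, 1136 to 1304 CPM in Npc1-/- dipyridamole and 6732 to 7620.0 CPM in Npc1+/+ vehicle cerebella. Calb1, a calcium buffer of Purkinje cells, had 41.2, 39.6, 79.6 and 48.6 CPM in Npc1-/- vehicle against 679.2, 708.3, 638.6 and 639.6 CPM in Npc1+/+ vehicle cerebella. None of the 8 markers of all neurons passed the edgeR test there, but each had a lower mean CPM in Npc1-/- vehicle than in Npc1+/+ vehicle cerebella, and their median log2 change was -0.44, beside -0.34 for the 10 members. Their summed levels overlapped, at 3580.0 to 5494 CPM in Npc1-/- vehicle, 3697 to 4976 CPM in Npc1-/- dipyridamole and 4391 to 5288 CPM in Npc1+/+ vehicle cerebella.

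Of 13 markers of deep nuclear and brainstem neurons, 8 were tested in cerebellum, 4 rose in untreated mutants and none fell. Their summed level was 526.3 to 699.0 CPM in Npc1-/- vehicle, 534.1 to 599.4 CPM in Npc1-/- dipyridamole and 312.3 to 431.2 CPM in Npc1+/+ vehicle cerebella, with no overlap between mutants and wild type. Th, the enzyme that makes the precursor of dopamine, rose by 1.69 ± 0.35 on the log2 scale, and Chat, which makes acetylcholine, by 1.15 ± 0.34 (edgeR adjusted p = 0.0047 and 0.0415). Slc5a7, the choline transporter, rose by 0.83 ± 0.25, and Spp1, which microglia also express, by 0.99 ± 0.22 (edgeR adjusted p = 0.0405 and 0.0067). Spp1 alone was a large part of the summed level. It had 204.0 to 328.7 CPM in Npc1-/- vehicle, 163.7 to 246.0 CPM in Npc1-/- dipyridamole and 75.4 to 120.7 CPM in Npc1+/+ vehicle cerebella. Slc17a6, a glutamate transporter of deep nuclear neurons, had 0.34 ± 0.19 and did not pass. Of 3 Hox genes of the hindbrain behind the cerebellum, Hoxb5 and Hoxa5 were at 0 in all 24 libraries. Hoxb3 was at 0 in all 12 hippocampal libraries and had 0.0 to 2.44 CPM in Npc1-/- vehicle, 0.0 to 0.537 CPM in Npc1-/- dipyridamole and 0.121 to 0.400 CPM in Npc1+/+ vehicle cerebella. The part of these cells in the Sncg difference was not tested.

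Glial markers moved as well. Of 11 tested microglial genes 10 rose in untreated mutant cerebella, with a median log2 change of 3.23. All 12 microglial markers together summed to 387.0 to 493.6 CPM in Npc1-/- vehicle, 356.4 to 534.8 CPM in Npc1-/- dipyridamole and 55.7 to 71.6 CPM in Npc1+/+ vehicle cerebella, with no overlap between mutants and wild type. Of 10 astrocyte genes 3 rose and 2 fell there, and their sums overlapped, at 4607 to 6492, 5645 to 6861 and 4808 to 5334 CPM in the same groups. In hippocampus 6 of 11 microglial genes and 2 of 9 tested astrocyte genes rose in untreated mutants. The microglial sums in hippocampus were 344.0 to 480.7, 395.0 to 426.9 and 174.0 to 221.1 CPM in the same 3 groups, and the astrocyte sums were 6670.0 to 7748, 5670.0 to 7534 and 4423 to 5953 CPM. The part of these glial values and of the markers of all neurons in the members' values was not tested.

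**Figure D4:**
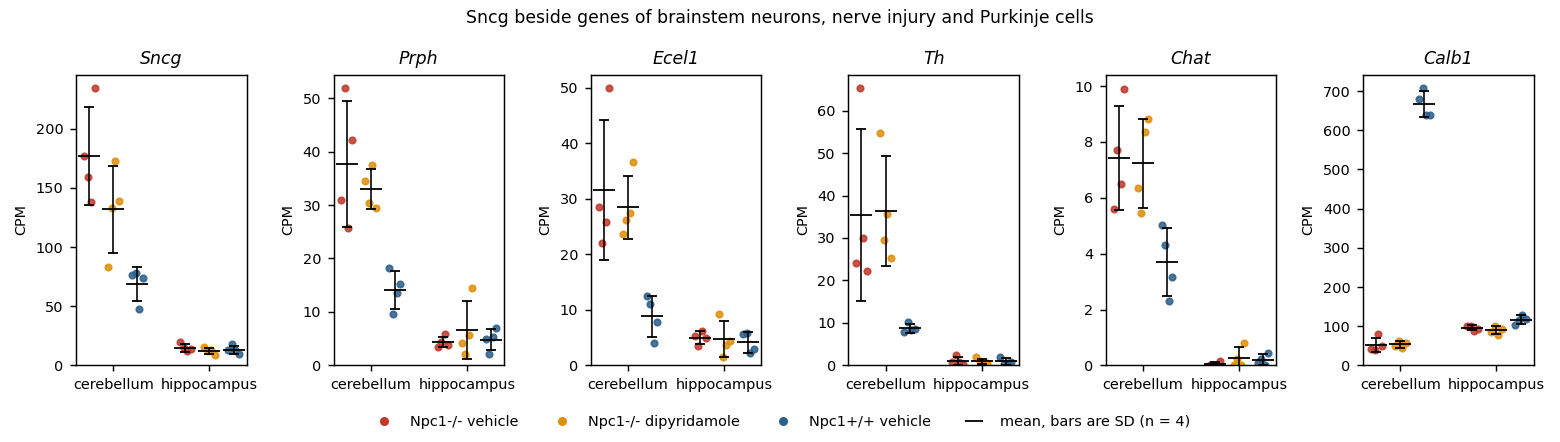
CPM (y axes, from 0) of Sncg, of the intermediate filament gene Prph, the nerve injury gene Ecel1, the brainstem neuron genes Th and Chat and the Purkinje cell gene Calb1, by tissue (x axis) and group (colours), with mean and SD of 4 mice in black. In cerebellum the untreated mutant range of Prph, 25.7 to 51.9 CPM, lies above the wild-type range, 9.59 to 18.1 CPM, and that of Calb1, 39.6 to 79.6 CPM, lies below the wild-type range, 638.6 to 708.3 CPM.

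In hippocampus, markers of myelinating cells moved with genotype beside Nefh and Ina. Of 12 oligodendrocyte genes 11 fell in untreated mutants, and they summed to 1231 to 1905 CPM in Npc1-/- vehicle, 679.5 to 1806 CPM in Npc1-/- dipyridamole and 5215 to 6407 CPM in Npc1+/+ vehicle hippocampi. The part of this change in the Nefh and Ina values was not tested. Of 13 hippocampal principal neuron genes none was called by edgeR, and their sums of 8582 to 11130.0, 6373 to 12400.0 and 8627 to 10570.0 CPM overlapped between the same groups. In untreated mutants 9 of these 13 had a mean CPM above wild type, with a median fitted log2 change of -0.115. None of the 8 markers of all neurons was called there by edgeR, and 0 had a mean CPM above wild type. Their median log2 change was -0.15, beside -0.29 for the 10 members. In treated mutants over wild type their median was -0.06, beside -0.31 for the members.

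The genes that work with these proteins were followed as 10 lists with 185 genes besides the members. In untreated mutant cerebella 11 of 176 tested rose and 12 fell, 13.1% against 9.95% of all genes, with a median of -0.03. In hippocampus 1 of 173 rose and 1 fell, 1.16% against 1.62%. Under dipyridamole none was called by edgeR in either tissue.

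Among 9 partners of intermediate filaments, Prph and Vim rose in mutant cerebella. Prph, the peripherin subunit that assembles with neurofilaments in peripheral and brainstem neurons, had 30.9, 51.9, 25.7 and 42.2 CPM in Npc1-/- vehicle, 34.5, 30.4, 37.5 and 29.5 CPM in Npc1-/- dipyridamole and 18.1, 9.59, 13.5 and 15.3 CPM in Npc1+/+ vehicle cerebella. Like Sncg it lay higher in each mutant library than in each wild-type one, with a log2 fold change of 1.20 ± 0.27 for untreated mutants (edgeR adjusted p = 0.0083). Vim, the filament protein of glia and vessels, rose by 1.36 ± 0.22 (edgeR adjusted p = 0.00043).

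Of 24 tested genes of axon growth and injury, 5 rose and 2 fell in cerebellum. Atf3, a transcription factor induced in injured neurons, rose by 2.79 ± 0.30 in cerebellum and by 1.69 ± 0.39 in hippocampus (edgeR adjusted p = 7.62e-06 and 0.0443). Ecel1, an endopeptidase gene induced by nerve damage, had 28.5, 22.1, 25.8 and 50.0 CPM in Npc1-/- vehicle against 12.5, 11.0, 4.10 and 7.75 CPM in Npc1+/+ vehicle cerebella, a rise of 1.90 ± 0.37 (edgeR adjusted p = 0.0028). Basp1, a growth cone protein related in function to Gap43, rose by 0.93 ± 0.21, while Nrn1, which promotes neurite growth, fell by 0.89 ± 0.18 (edgeR adjusted p = 0.0088 and 0.0042). In hippocampus Cntn2, an adhesion molecule of axons and myelin, fell by 1.04 ± 0.21 (edgeR adjusted p = 0.0245).

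Among 25 tested stathmins and microtubule-associated proteins, 1 rose and 3 fell in mutant cerebella. Stmn3, a relative of Stmn2, had 479.8, 568.1, 332.5 and 529.8 CPM in Npc1-/- vehicle and 614.5, 650.6, 720.0 and 715.9 CPM in Npc1+/+ vehicle cerebella, a fall of 0.86 ± 0.18 (edgeR adjusted p = 0.0039). Dclk1 and Mtcl1 fell by 0.86 ± 0.19 and 0.55 ± 0.17, and Map7 rose by 0.59 ± 0.16. Of 11 tubulins Tuba8 alone was called, with 39.0, 33.4, 25.3 and 38.1 CPM in Npc1-/- vehicle against 125.4, 126.7, 154.0 and 117.7 CPM in Npc1+/+ vehicle cerebella, a fall of 2.20 ± 0.20 (edgeR adjusted p = 9.31e-07). Tuba8 was also 2.62 ± 0.15 higher in wild-type cerebellum than in hippocampus, and its genotype effect differed between tissues by -2.49 ± 0.27 (edgeR adjusted p = 2.64e-10 and 0.00021). Among 17 enzymes that modify or sever tubulin, Ttll5 fell by 1.94 ± 0.41.

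In the membrane skeleton and axon initial segment, 3 of 21 genes fell in mutant cerebella and none rose. Among them Ank1, an ankyrin, and Scn8a, a sodium channel of the initial segment and nodes, fell by 0.57 ± 0.17 and 0.57 ± 0.18. Of 27 genes for transport motors and their adaptors Dctn1, the large dynactin subunit, alone was called, and fell by 0.85 ± 0.21. None of 23 kinases and phosphatases of tau and neurofilaments and none of 3 genes of the other synucleins and their partner was called by edgeR in either tissue. Among 16 genes of axon degeneration and proteolysis, 3 rose and 1 fell in cerebellum. Nmnat3 and Nmnat1 encode enzymes of NAD synthesis and Cast the inhibitor of calpains. Nmnat3 rose by 1.94 ± 0.50 and Cast by 0.76 ± 0.22, while Nmnat1 fell by 1.00 ± 0.30.

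Of the genes outside the set with a mean of at least 5 CPM, those whose profile lay nearest to the mean of Nefl, Nefm and Nefh over 24 libraries were Faap20, Git2, Scd1, Kazn and Megf10. Likeness was the root mean square difference of log2(CPM + 1) after each gene was centred, which was 0.19 for Faap20, 0.20 for Git2, 0.21 for Scd1, 0.21 for Kazn and 0.22 for Megf10, among 10615 genes. Of the members themselves Nefm lay nearest at 0.19 and Map2 farthest at 1.07, but Nefm is part of the mean it was compared with. Nefl and Nefh, the other parts of that mean, lay at 0.55 and 0.52, ranks 1550 and 1172. The mean profile therefore stands close to Nefm and not to Nefl or Nefh. All 24 libraries share the split by tissue, and these distances are a description. Faap20 averaged 50.1 ± 5.48, 56.2 ± 10.9 and 51.0 ± 6.69 CPM in Npc1-/- vehicle, Npc1-/- dipyridamole and Npc1+/+ vehicle cerebella, and 19.97 ± 1.88, 20.1 ± 2.23 and 24.9 ± 2.37 CPM in the same groups in hippocampus (SD, n = 4 each).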

How the data were processed

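RNA of cerebellum and hippocampus from 12 mice was measured in 24 libraries. Per the labels' protocols the Ion AmpliSeq Transcriptome Mouse panel was sequenced with the Ion S5 system. The tools, per the submitters' processing notes, were FastQC 0.11.9, Trimmomatic 0.39, STAR 2.7.9a and featureCounts 2.0.3 on GRCm39, and strand was ignored per the file headers. The files as deposited hold raw counts of reads for each gene, which the authors did not normalize. No molecular identifiers separate PCR copies, so the depth of a library bounds counting error only.

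Symbols matched 51884 of 57126 gene IDs, and IDs without one held 0.21% of counts. The 12 libraries of a tissue entered 1 edgeR fit (edgeR 4.0.16, R 4.3.3) with TMM factors, filterByExpr, robust dispersions, the quasi-likelihood test and sex as covariate. Differences between tissues used 24 libraries with the mouse as block, because labels give both tissues of each mouse, and a sex by tissue term. Deviations of a mouse's tissues correlated above 0.1 in 8 of 12 mice, all of them mutants. In the 4 wild-type mice the correlations were -0.486, 0.1, 0.0259 and -0.542. Adjusted p is Benjamini-Hochberg over all genes tested, and 0.05 is the threshold. The error of a fitted difference is its standard error, and its 95% interval uses the t distribution of the fit. Alternatives included DESeq2 1.42.0 and limma-voom (limma 3.58.1). The test was tried on simulated data with changes of known size in 66 or 67 genes per size. These genes were drawn at random over all levels, and no effect of sex or mouse was simulated. The rates are therefore not those of the members. For genotype in cerebellum, in hippocampus and between tissues it recovered 4.55%, 4.69% and 0% of 1.5-fold changes. Of 2-fold changes it recovered 63.1%, 25.4% and 7.58%. A gene that did not pass is thus not shown to be unchanged. Each tissue and arm has 4 mice as replicates, and pairs of replicates differed by more than sampling noise.

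The members, gene lists and markers were chosen with earlier results of these data known. Named genes were the members, Npc1, up to 4 called genes per list with the smallest p, and the 5 genes nearest to the mean profile of Nefl, Nefm and Nefh. Genes named as markers were chosen after their values were seen. Some genes that this rule named are not reported here.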

Additional observations from a re-analysis of the deposited data

Results flagged for a closer look

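Of 72 groups of 4 libraries checked (library totals and the levels of the 10 members and Npc1), 4 held a value whose gap to its nearest neighbour exceeded Dixon's 95% critical share of the group's range, and chance gives about 1 in 20. The Npc1-/- dipyridamole cerebellar replicate 2 had a library total of 6.118 M, below the other 3 of its group, at a ratio of 0.854. Sncg in wild-type cerebellar replicate 3 was 47.31 CPM, below the other 3 at 73.87 to 78.13 CPM (ratio 0.862). Without that library the rise of Sncg in untreated mutants was 1.33 and still passed (edgeR adjusted p = 0.0073). Nefl in dipyridamole hippocampal replicate 4 was 727.5 CPM, below the other 3 at 1278 to 1362 CPM (ratio 0.868). This is the library whose ion code in the labels is shared with the same mouse's cerebellar library. Mapt in dipyridamole hippocampal replicate 3 was 357.0 CPM, above the other 3 at 282.5 to 293.1 CPM (ratio 0.858).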

How the results depend on the processing

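Of 926 alternative values of single genes, 870 kept their direction and their side of the threshold, 19 passed it only in the alternative, 12 only in the main fit, and 25 changed sign. The alternatives without the hippocampal libraries of untreated replicate 2 (the shallowest) and dipyridamole replicate 4 were chosen after seeing the data. Shared replicate numbers do not pair different mice (9 of 24 correlations above 0.1). With a replicate block within a tissue, genes called fell to 613 from 1286 for genotype and to 1171 from 1864 for treated mutants against wild type in cerebellum. In hippocampus the block gave 55 against 206 and 195 against 342, and it changed no member's call. Without the mouse as block, 5 members differed between tissues in wild type.

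Without sex in the model 4 members and 2249 genes were called for genotype in cerebellum, and 2 members and 490 genes in hippocampus. With only the 2 groups compared, 0 members and 421 genes were called in cerebellum and 47 genes in hippocampus. Female mice alone gave 51 genes for genotype and 179 for treated mutants against wild type in hippocampus, and DESeq2 gave 419 and 689. Without the 2 hippocampal libraries named above, 144 genes were called for treated mutants against wild type. A stricter filter left 1 member, Sncg, for treated mutants against wild type in cerebellum (Ina: -0.54, edgeR adjusted p = 0.0504), and no filter called 13 genes for dipyridamole in cerebellum. The genotype effect between tissues called 1 member, Sncg, under DESeq2, under no filter and without the sex by tissue term, which called 386 genes. Sncg was also called without wild-type replicate 4, which called 227 genes.

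Leaving out 1 mouse at a time gave, for genotype in cerebellum, 1 to 3 members and 474 to 1866 genes, the lowest without the only female of the untreated mutants. It gave 31 to 238 genes for genotype in hippocampus, 1 to 2 members and 858 to 1803 genes for treated mutants in cerebellum, 130 to 286 genes for them in hippocampus, 5 to 7 members for tissue, and 0 to 1 members and 27 to 227 genes for genotype between tissues. The causes were not tested.

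No value that changed sign was called, and the main values among them reached -0.48, for Sncg under dipyridamole in cerebellum. Without sex they were Nefm (0.30), Map1b (-0.00028) and Gap43 (0.0577) for genotype in cerebellum, Map1b (-0.0397) for treated mutants in cerebellum, and Map1b (0.0017) and Sncg (0.19) for genotype in hippocampus. With the replicate block Sncg was 0.0886 and without the 2 hippocampal libraries 0.0277 for genotype in hippocampus, where Nefl was 0.0283 for treated mutants. In females alone the dipyridamole value was 0.16 for Sncg in cerebellum and -0.0909 for Ina in hippocampus. Leaving out 1 mouse moved Nefm from -0.20 to 0.16 for genotype and from -0.0932 to 0.23 for treated mutants in cerebellum, and Map1b from -0.0367 to 0.18 for treated mutants. In hippocampus it moved Map1b from -0.14 to 0.0127, Gap43 from -0.41 to 0.0440 and Sncg from -0.20 to 0.10 for genotype, Nefl from -0.47 to 0.0267 for treated mutants, and Ina from -0.0113 to 0.25 for dipyridamole. It moved Ina from -0.0112 to 0.19 for tissue and Sncg from -0.62 to 0.12 for dipyridamole between tissues.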
